A study of Homo sapiens with 6 samples.

Results

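The genes encoding the RUNX transcription factors and their protein partners were followed in RNA sequenced from a human adrenocortical carcinoma cell line and from a subpopulation sorted from it. They were chosen by name, as the 7 rows RUNX1, RUNX2, RUNX3, CBFB, RUNX1T1, CBFA2T2 and CBFA2T3 of a count table of 57341 genes, with earlier results of these data known. All 7 had enough counts to be tested, as did 16710 genes of the table. The 6 libraries came from 3 replicates of H295R, the parental line, and 3 replicates of H295R-PM-Ptc+, the cells that were sorted from H295R for Ptch1 (the Hedgehog receptor Patched) at the plasma membrane and then amplified. No treatment is named in the labels of either group. The sources used here describe a single sorted and amplified population and do not say whether the replicates were separate cultures, so p-values measure only the spread between these libraries, which may be technical.

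RUNX proteins bind DNA through their Runt domain, and CBFB, which does not bind DNA itself, pairs with this domain and strengthens the binding. RUNX1 is known for blood formation, RUNX2 for bone formation, and RUNX3 for neurons, lymphocytes and epithelia. RUNX1T1 (also called ETO), CBFA2T2 and CBFA2T3 form the ETO family of co-repressors, which do not bind DNA by themselves, recruit histone deacetylases, and became known through fusions of RUNX1T1 or CBFA2T3 to RUNX1 in leukaemia.

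Each RUNX gene is transcribed from a distal and a proximal start. The deposited counts pool all annotated transcripts of a gene, so the values below cannot be assigned to a start. The deposited span of RUNX1 reaches to 36004667, upstream of both of its windows. The distal windows of the 3 RUNX genes are shown because RUNX proteins can bind RUNX promoters, and the proximal window of RUNX1 is shown beside its distal one because RUNX1 was the member with the clearest difference. Each sequence gives the 250 bases before a start, on the strand of the gene, from the RefSeq promoter table of build GRCh38.p14 or, for the distal start of RUNX1, from hg38 before the start of its MANE Select transcript. Capitals mark the RUNX hexamers TGTGGT and TGCGGT, written as ACCACA or ACCGCA where they lie on the opposite strand. The windows lie at chr21:35049303-35049552 (minus strand) for the distal start of RUNX1, chr21:34888700-34888949 (minus strand) for its proximal start, chr6:45328080-45328329 (plus strand) for the distal start of RUNX2, and chr1:24965011-24965260 (minus strand) for the distal start of RUNX3. In the deposited annotation RUNX2 begins at 45328157 and RUNX3, on the minus strand, at 24965121, so part of each of these windows lies inside the gene.
RUNX1 distal: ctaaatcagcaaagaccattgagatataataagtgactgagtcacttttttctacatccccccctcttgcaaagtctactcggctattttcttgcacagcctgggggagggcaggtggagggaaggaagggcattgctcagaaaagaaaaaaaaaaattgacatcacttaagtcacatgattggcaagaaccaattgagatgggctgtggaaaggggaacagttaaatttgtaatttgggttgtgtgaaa
RUNX1 proximal: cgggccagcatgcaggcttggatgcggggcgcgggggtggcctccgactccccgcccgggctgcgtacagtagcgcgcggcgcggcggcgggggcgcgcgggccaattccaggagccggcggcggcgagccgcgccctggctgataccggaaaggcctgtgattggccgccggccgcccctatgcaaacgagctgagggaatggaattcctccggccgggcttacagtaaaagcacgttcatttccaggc
RUNX2 distal: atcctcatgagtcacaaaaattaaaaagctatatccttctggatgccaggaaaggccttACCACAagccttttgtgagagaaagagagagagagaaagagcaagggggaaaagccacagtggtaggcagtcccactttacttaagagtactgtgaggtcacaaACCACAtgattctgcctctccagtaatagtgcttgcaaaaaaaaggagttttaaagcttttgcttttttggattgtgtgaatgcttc
RUNX3 distal: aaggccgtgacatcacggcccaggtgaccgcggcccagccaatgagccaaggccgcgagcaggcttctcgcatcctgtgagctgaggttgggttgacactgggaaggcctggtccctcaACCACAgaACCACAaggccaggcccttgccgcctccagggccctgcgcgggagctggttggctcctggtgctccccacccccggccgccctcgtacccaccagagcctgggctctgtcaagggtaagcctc

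The distal window of RUNX2 held 2 hexamers, starting 191 and 87 bases before the start, and the distal window of RUNX3 held 2, at 131 and 123 bases. Neither window of RUNX1 held one. The windows of the proximal starts of RUNX2 and RUNX3, and those of CBFA2T2 and CBFA2T3, held none either. In the 250 bases before the start, 16.3% of all 35116 windows of the RefSeq table held at least 1 of these hexamers on either strand. A match describes the letters only, and says nothing on whether a RUNX protein was bound there. The base composition of the RUNX1 windows differed, with 42.0% G and C in the distal and 71.2% in the proximal window.

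The libraries held 23264403 to 25813247 counted fragments each, and the first principal component of the tested genes (45.7% of the variance) separated the groups while the second (27.6%) set replicate 1 of both groups apart from the others. Of 12 adrenocortical markers 11 were tested, with a summed level of 1740 to 2090 CPM (counts scaled by library size with TMM factors) in the libraries labelled H295R and 2300 to 2560 CPM in those labelled H295R-PM-Ptc+, and SCARB1 and CYP21A2 passed the test as higher in the latter. SCARB1, the HDL receptor, alone went from a mean of 817 to 1263 CPM, while the median log2 fold change of the 11 was 0.0060 with 6 of them higher. With the replicate number as a block 3 were called higher, STAR as well (log2 fold change 0.41), and 1 lower, CYP11A1 (-0.25). Over all tested genes 2.42% were called higher and 1.32% lower, or 12.1% and 10.4% with the block. CYP11B1, the enzyme of the last step of cortisol synthesis, had at most 3 counts in any library. Markers of blood cells summed to 0.809 to 1.34 CPM and 1.77 to 2.11 CPM, with PTPRC, HBB and GATA1 at 0, and those of endothelial cells to 0.197 to 0.251 CPM and 0.469 to 0.605 CPM. Both summed levels were thus low and higher in the H295R-PM-Ptc+-labelled libraries, and their part in the results was not tested.

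PTCH1, the gene whose product was used for the sort, had 441, 559 and 579 counts in the libraries labelled H295R and 248, 326 and 319 in those labelled H295R-PM-Ptc+. The libraries that carry the label of the sorted cells therefore held less of its RNA (log2 fold change -0.81, edgeR adjusted p = 0.0207). In a table of normalized values that accompanies the study the names are swapped relative to the deposited ones, since all 6 of its columns matched a deposited library of the same code that carries the opposite name. The counts alone cannot tell which names are right. Every direction given here is that of the libraries as labelled, and would turn if the names were exchanged.

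Of the 7 genes, RUNX1 alone passed the test in the comparison of the groups (edgeR quasi-likelihood, adjusted p under 0.05 over all 16710 genes). It was higher in the H295R-PM-Ptc+-labelled libraries, a direction called for 2.42% of all tested genes, and no member was called lower, a direction called for 1.32%. CBFA2T3, RUNX1 and RUNX1T1 were the 3 members with an unadjusted p under 0.05, and DESeq2 and limma-voom called 1 member each, RUNX1. In 4 of the 7 genes (RUNX1, RUNX1T1, CBFB and CBFA2T3) no library of one group lay within the range of the other, as in 23.5% of all tested genes. The fit with the replicate number as a block called RUNX1 and RUNX1T1 higher and CBFA2T3 lower, against a background of 12.1% called higher and 10.4% called lower in that fit. The median log2 fold change of the members (libraries labelled H295R-PM-Ptc+ minus H295R) was -0.04, and that of all genes was 0.00094, while the median size of the change was 0.14 among the members and 0.13 among all genes. The size of the change over the whole set was thus close to that over all genes, and the values differed between individual members. In bulk RNA, a different share of cells expressing a gene and a different amount of RNA per cell cannot be told apart.

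**Figure D1:**
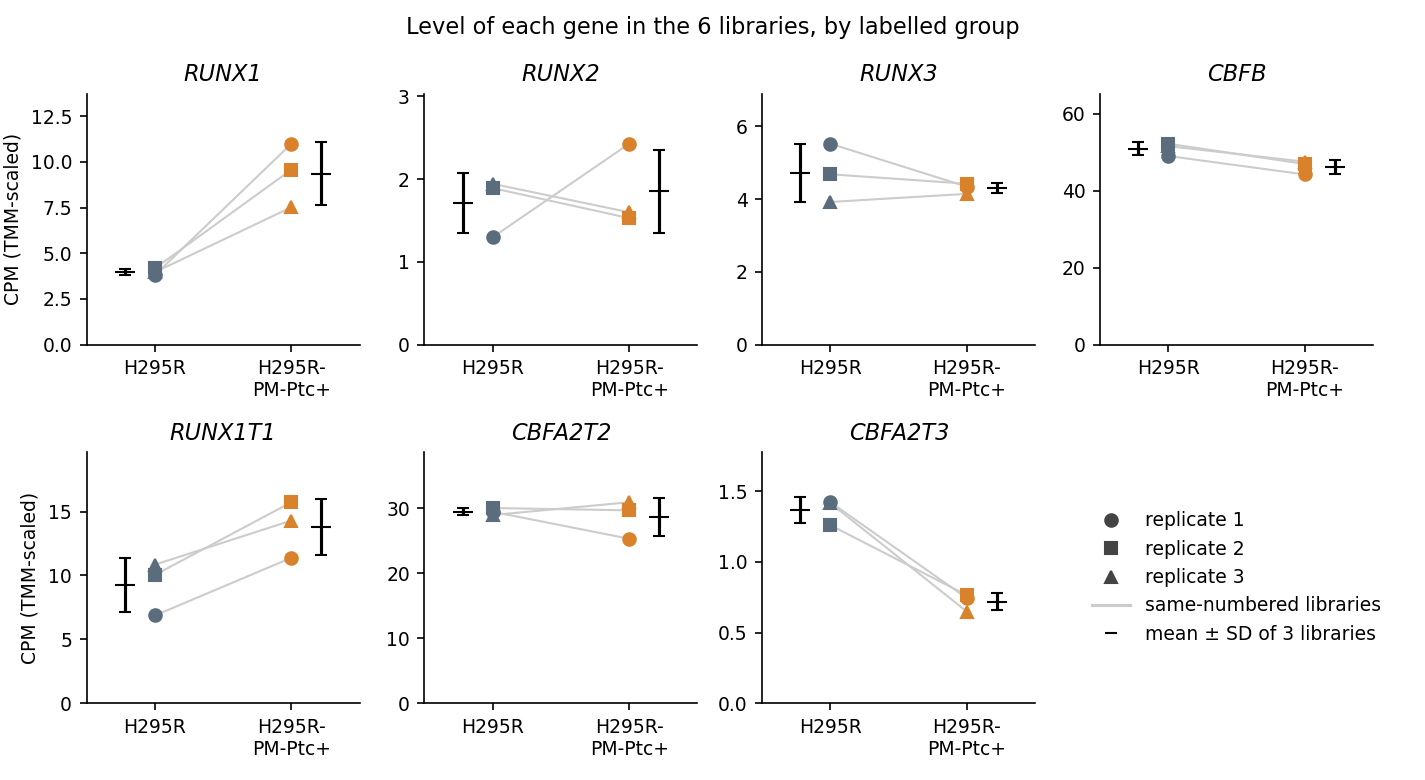
Normalised read counts (CPM, vertical axis from 0, with its own scale in each panel) of the 7 genes by labelled group; circles, squares and triangles are replicates 1, 2 and 3, grey lines join same-numbered libraries, and bars give the mean ± SD of 3 libraries. RUNX1 lies at 3.81 to 4.17 CPM in the libraries labelled H295R and at 7.52 to 11.0 CPM in those labelled H295R-PM-Ptc+, while the groups overlap for RUNX2, RUNX3 and CBFA2T2.

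RUNX1, a DNA-binding member best known as a regulator of blood stem cells, lies at chr21:34787801-36004667 on the minus strand of the authors' annotation (hg38). It had 91, 106 and 98 counts in the libraries labelled H295R and 281, 238 and 174 in those labelled H295R-PM-Ptc+. Its normalised counts were 3.81, 4.17 and 3.96 CPM in the former and 11.0, 9.57 and 7.52 CPM in the latter. The lowest library of the second group thus lay well above the highest of the first, and the spread was wider in the second group. The means were 3.98 ± 0.183 CPM (SD, n = 3) and 9.36 ± 1.75 CPM (SD, n = 3), a 2.35-fold difference. The log2 fold change was 1.23 (SE 0.160, 95% interval 0.87 to 1.60, edgeR adjusted p = 0.00370). With the replicate number as a block the log2 fold change was 1.22. The same-numbered libraries differed by 1.53, 1.20 and 0.92 on the log2 scale. RUNX1 passed the test in every alternative fit, with a log2 fold change of 1.09 to 1.36 when any 1 library was left out, and of 1.07 when replicate 1 of both groups was left out. The study, whose table of normalized values carries the group names the other way round, listed RUNX1 among its genes of interest from these same libraries, and that listing is no independent evidence of a direction.

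RUNX2, the master regulator of osteoblasts, lies at chr6:45328157-45664349 on the plus strand. It had 31, 48 and 48 counts in the libraries labelled H295R and 62, 38 and 37 in those labelled H295R-PM-Ptc+. The 1.30, 1.89 and 1.94 CPM of the former overlapped with the 2.43, 1.53 and 1.60 CPM of the latter. Replicate 1 was the lowest library of its group in the former and the highest of its group in the latter. The log2 fold change was 0.12 (SE 0.250, 95% interval -0.45 to 0.68, edgeR adjusted p = 0.878), so that no difference was detected and the interval still allows a moderate one. Without replicate 1 of both groups the value turned to -0.29, an exclusion chosen after seeing the data. The transcription factor subunit gene SUPT3H lies on the opposite strand and overlaps the start of the span of RUNX2, and was the only gene with 10 or more counts in any library that overlapped the span of a member. Its exons did not overlap those of RUNX2, and its 69, 101 and 81 counts against 71, 79 and 69 gave a log2 fold change of -0.18 (edgeR adjusted p = 0.651).

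RUNX3, which acts in lymphocytes, sensory neurons and epithelia, lies at chr1:24899511-24965121 on the minus strand. It had 132, 119 and 97 counts in the libraries labelled H295R and 111, 110 and 96 in those labelled H295R-PM-Ptc+. Its 5.53, 4.69 and 3.92 CPM enclosed the 4.34, 4.43 and 4.15 CPM of the other group. The log2 fold change was -0.13 (SE 0.156, 95% interval -0.48 to 0.22, edgeR adjusted p = 0.753), and a difference as large as that of RUNX1 lies outside this interval. Its value rested on single libraries, from -0.0016 without H295R replicate 1 to -0.26 without H295R replicate 3.

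CBFB, the common partner of the RUNX proteins, lies at chr16:67029116-67101058 on the plus strand and was the most abundant member. It had 1172, 1327 and 1276 counts in the libraries labelled H295R and 1131, 1168 and 1101 in those labelled H295R-PM-Ptc+. Its 49.1, 52.2 and 51.6 CPM all lay above the 44.3, 47.0 and 47.6 CPM of the other group. Every same-numbered pair pointed the same way, by -0.15, -0.15 and -0.12 on the log2 scale. The difference was small, with a log2 fold change of -0.14 (SE 0.0714, 95% interval -0.30 to 0.02), and did not pass the test (edgeR adjusted p = 0.367, or 0.0653 with the replicate block).

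RUNX1T1, a co-repressor of the ETO family, lies at chr8:91954967-92103286 on the minus strand. It had 164, 255 and 268 counts in the libraries labelled H295R and 291, 391 and 331 in those labelled H295R-PM-Ptc+. These came to 6.86, 10.04 and 10.8 CPM in the former and 11.4, 15.7 and 14.3 CPM in the latter. Replicate 1 was the lowest in both groups, and the groups did not overlap. The means were 9.25 ± 2.10 CPM and 13.8 ± 2.21 CPM (SD, n = 3 each), a 1.49-fold difference. The log2 fold change was 0.58 (SE 0.183, 95% interval 0.16 to 0.99) and did not pass the test without the block (edgeR adjusted p = 0.137). With the replicate block the log2 fold change was 0.58 and the edgeR adjusted p was 2.85e-04, and the same-numbered pairs differed by 0.73, 0.65 and 0.40. Without any filter on low counts the edgeR adjusted p was 0.0184, and without replicate 1 of both groups it was 0.00829.

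CBFA2T2, another co-repressor of the ETO family, lies at chr20:33490075-33650036 on the plus strand. It had 704, 763 and 716 counts in the libraries labelled H295R and 647, 738 and 716 in those labelled H295R-PM-Ptc+. Its 29.5, 30.0 and 29.0 CPM lay inside the 25.3 to 30.9 CPM of the other group, in which replicate 1 was the lowest. The log2 fold change was -0.04 (SE 0.0913, 95% interval -0.25 to 0.16, edgeR adjusted p = 0.877), and its sign turned to 0.032 without that library.

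CBFA2T3, an ETO family co-repressor that works with TAL1 and GATA factors in blood progenitors, lies at chr16:88874858-88977204 on the minus strand. It had 34, 32 and 35 counts in the libraries labelled H295R and 19, 19 and 15 in those labelled H295R-PM-Ptc+. These came to 1.42, 1.26 and 1.42 CPM in the former and 0.743, 0.764 and 0.648 CPM in the latter. Each library of the second group lay below each library of the first. The means were 1.37 ± 0.0922 CPM and 0.719 ± 0.0620 CPM (SD, n = 3 each), 1.89-fold lower in the H295R-PM-Ptc+-labelled libraries. The log2 fold change was -0.92 (SE 0.212, 95% interval -1.40 to -0.44), and its edgeR adjusted p of 0.0507 missed the threshold narrowly. With the replicate block the edgeR adjusted p was 0.0145, and with a filter of at least 10 counts in every library it was 0.0443. Without any 1 library it rose to between 0.0843 and 0.180, with log2 fold changes of -0.98 to -0.86.

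**Figure D2:**
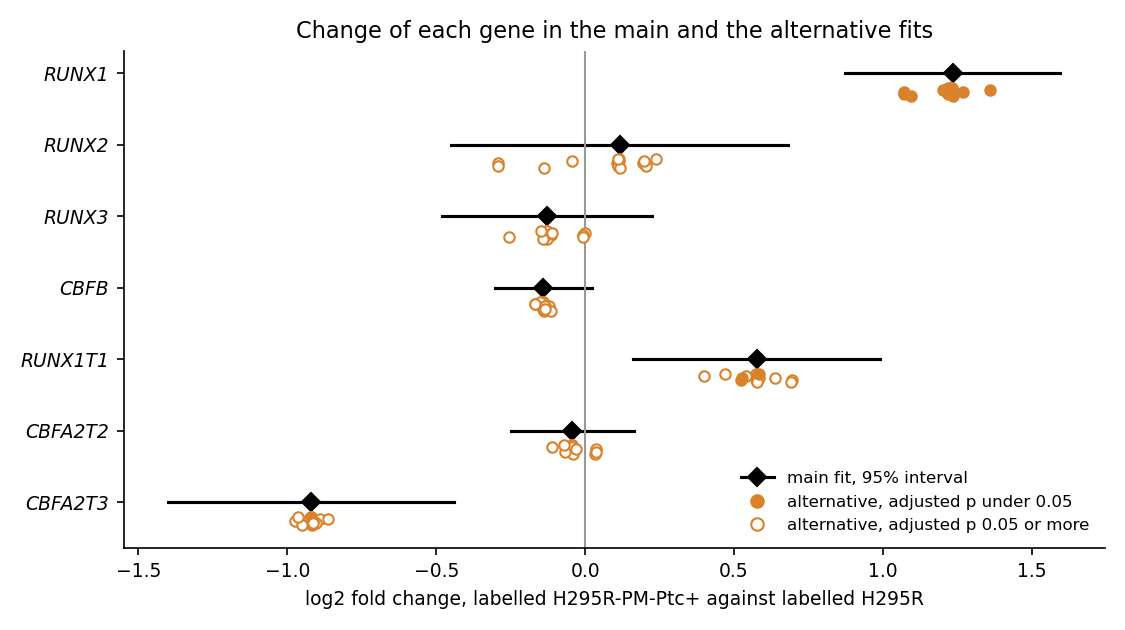
Log2 fold change of each member (those labelled H295R-PM-Ptc+ against H295R, horizontal axis); diamonds with bars are the main fit and its 95% interval, and circles the 14 alternative fits, filled where the adjusted p was under 0.05. RUNX1 is filled throughout at 1.07 or more, CBFA2T3 lies between -0.98 and -0.86, and RUNX2 and CBFA2T2 lie on both sides of 0.

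Levels were compared between genes as FPKM, the normalised counts per kilobase of the gene length in the deposited table. CBFB was the highest in both groups, with group means of 12.3 FPKM in the libraries labelled H295R and 11.2 FPKM in those labelled H295R-PM-Ptc+, and its mean over all libraries lay at the 73.8th percentile of the tested genes. CBFA2T2 followed with 3.12 and 3.03 FPKM. The RUNX genes were lower than their partner, RUNX3 at 1.04 and 0.952 FPKM, RUNX1 at 0.256 and 0.601 FPKM, and RUNX2 at 0.209 and 0.226 FPKM. RUNX1T1 had 0.683 and 1.02 FPKM and CBFA2T3 had 0.229 and 0.120 FPKM. In the libraries labelled H295R neighbours in this order were separated in every library except CBFA2T3 and RUNX2. In those labelled H295R-PM-Ptc+ they were separated except RUNX1T1 and RUNX3, and CBFA2T3 was the lowest member. The place of RUNX1 depends on the length used: the deposited length of 15574 bases counts exons of all its transcripts, against 5971 bases in its MANE Select transcript. With MANE Select lengths RUNX1 had 0.667 ± 0.0306 and 1.57 ± 0.293 FPKM and RUNX3 had 1.10 ± 0.188 and 1.01 ± 0.0334 FPKM (SD, n = 3 each), so that RUNX1 ranked above RUNX3 in the H295R-PM-Ptc+-labelled libraries.

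The share of RUNX1 in the family was then taken for each library. RUNX1 made up 15.1, 17.5 and 18.7% of the summed FPKM of the 3 RUNX genes in the libraries labelled H295R, and 36.0, 34.5 and 30.3% in those labelled H295R-PM-Ptc+. The groups did not overlap, and the means of 17.1 ± 1.87% and 33.6 ± 2.97% (SD, n = 3) differed with p = 0.1 in an exact permutation test (two-sided), the smallest p that 3 libraries against 3 can give. RUNX3 made up 75.2, 67.5 and 63.8% in the former and 48.9, 55.0 and 57.5% in the latter, and was the largest share in all 6 libraries with these lengths. RUNX1 took 53.6 ± 3.17% (SD, n = 3) of the sum in the latter with MANE Select lengths, and 60.1 ± 2.95% in CPM without length, so the place of RUNX3 as the largest share there depends on the length used. RUNX2 made up 9.75 to 17.4% and 10.5 to 15.1%, which overlapped. These shares sum to 100%, so that a higher level of RUNX1 lowers the share of RUNX3 at an equal level of RUNX3. The summed FPKM of the RUNX genes was 1.62, 1.53 and 1.36 against 1.96, 1.78 and 1.59, which overlapped between the groups (exact permutation p = 0.2, without pairing). Within same-numbered pairs the sum was higher in the second group each time, by 0.27, 0.21 and 0.23 on the log2 scale.

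CBFB exceeded the summed RUNX FPKM in every library, by 7.31-, 8.25- and 9.20-fold in the libraries labelled H295R and by 5.46-, 6.39- and 7.22-fold in those labelled H295R-PM-Ptc+. The groups did not overlap, though 7.22 and 7.31 lay close together. The log2 ratio differed by -0.38 (exact permutation p = 0.1, the smallest possible). These factors depend on the length used, since the mean log2 ratios were 3.04 and 2.66 with the deposited lengths and 2.29 and 1.59 in CPM without length. RNA of the common partner thus stood above the summed RNA of the RUNX genes in both groups, by a smaller factor where RUNX1 was higher. The sum contains RUNX1, so a higher level of RUNX1 lowers this factor at equal levels of the other genes.

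Within the ETO family, CBFA2T2 made up most of the summed FPKM, with 80.7, 76.9 and 74.7% in the libraries labelled H295R and 73.5, 70.9 and 73.7% in those labelled H295R-PM-Ptc+. RUNX1T1 made up 13.1, 18.0 and 19.5% in the former and 23.1, 26.2 and 23.8% in the latter, without overlap (exact permutation p = 0.1, the smallest possible). CBFA2T3 made up 6.17, 5.11 and 5.78% and 3.42, 2.89 and 2.45%. The shares of RUNX1T1 and CBFA2T3 thus differed in opposite directions, and the sum of the family was 4.03 ± 0.147 and 4.17 ± 0.456 FPKM (SD, n = 3 each, exact permutation p = 0.6).

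**Figure D3:**
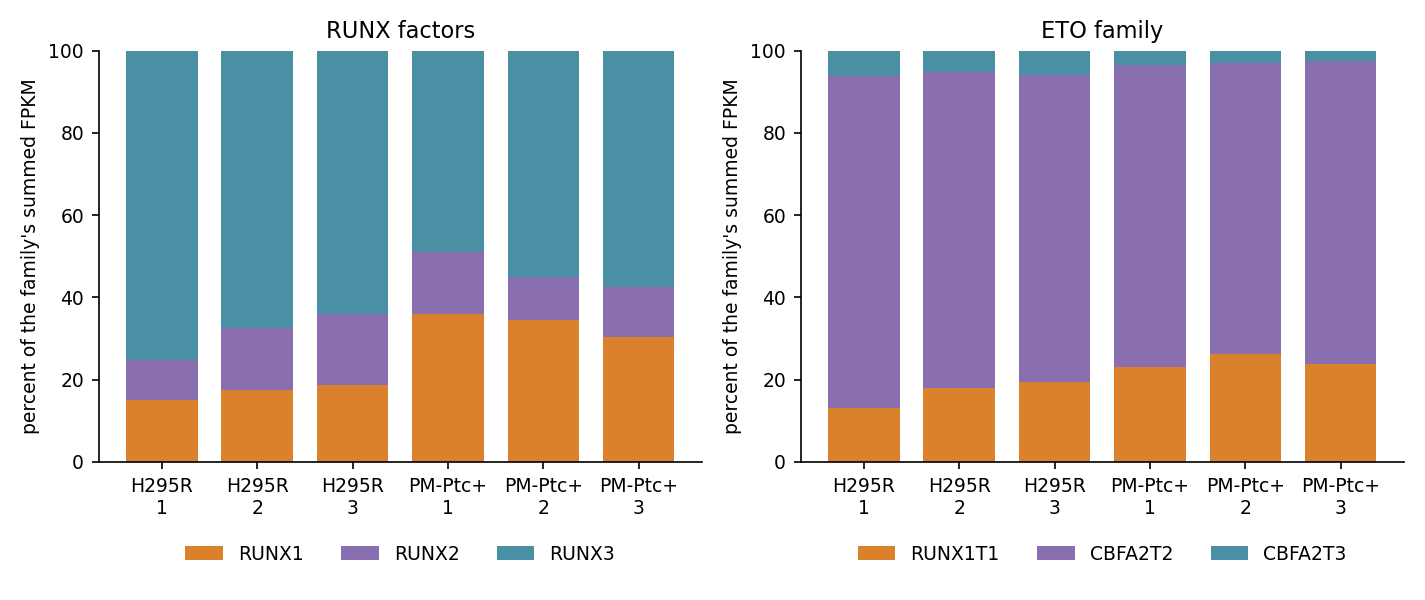
Stacked bars give the share of each gene in the summed FPKM of its family (percent, vertical axis from 0 to 100) in each of the 6 libraries, for the RUNX genes (left) and the ETO family (right). RUNX1 takes 15.1 to 18.7% in the libraries labelled H295R and 30.3 to 36.0% in those labelled H295R-PM-Ptc+.

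Neighbouring genes were examined to see whether a difference was shared along the chromosome. Among the 20 tested genes nearest to RUNX1, 10 on each side, 10 had higher and 10 lower values in the H295R-PM-Ptc+-labelled libraries, none passed the test (edgeR), 2 had an unadjusted p under 0.05, DESeq2 called 0 and limma-voom 0, and their median log2 fold change was 0.01. RUNX1 exceeded that median by 1.22. The chloride channel gene CLIC6, next to RUNX1, had a log2 fold change of 0.64 (edgeR adjusted p = 0.302). The transcript AP000688.29, 3 places away, had 1.13 (edgeR adjusted p = 0.0904). SIM2, 9 places away, went the other way with -0.58 (edgeR adjusted p = 0.208). All were named after their values were seen. Of the 20 neighbours of CBFA2T3, 16 had lower and 4 higher values with a median of -0.09, against which CBFA2T3 lay lower by -0.83. Of the 20 neighbours of RUNX1T1, 14 had lower and 6 higher values with a median of -0.06, and RUNX1T1 lay above it by 0.63. The medians around RUNX2, RUNX3, CBFB and CBFA2T2 lay between 0.0092 and 0.071. Over all 7 members, with 20 neighbours each, 3 neighbours passed the test (edgeR), which called 624 of all 16710 genes. They were C8orf88 near RUNX1T1 (log2 fold change -0.49), CES3 near CBFB (0.68) and SLC29A1 near RUNX2 (0.49), named for having passed it. DESeq2 called 2 neighbours of RUNX1T1 and 1 each of RUNX2, RUNX3 and CBFB, against 911 over all genes. With limma-voom 1 neighbour each of RUNX1T1, RUNX2 and CBFB was called, against 608 over all genes.

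**Figure D4:**
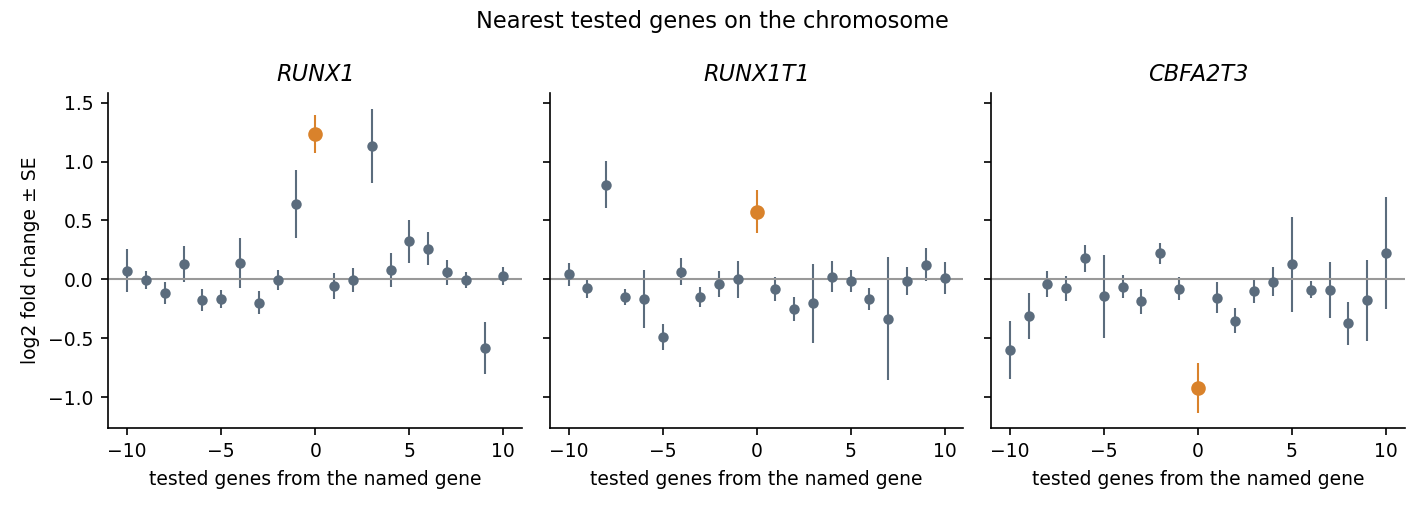
Log2 fold change ± SE (vertical axis, as labelled) of RUNX1, RUNX1T1 and CBFA2T3, the larger orange points, and of the 10 tested genes on each side in chromosomal order (horizontal axis, places from the named gene). RUNX1 at 1.23 stands above neighbours with a median of 0.01, with CLIC6 and AP000688.29 as the high points beside it and SIM2, at -0.58, as the low point.

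Among 14554 genes with a mean of at least 1 CPM, those whose profile over the 6 libraries lay closest to that of RUNX1 were SH3PXD2A, PRKCQ-AS1 and GPR37. Their root mean square distances on the log2 scale were 0.118, 0.145 and 0.147, against a median distance of 0.638 over all genes searched. SH3PXD2A, the podosome scaffold TKS5, had 3.52, 3.66 and 3.80 CPM in the libraries labelled H295R and 8.72, 9.13 and 7.78 CPM in those labelled H295R-PM-Ptc+. This likeness is a description over 6 libraries that share their normalization.

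The other genes of RUNX biology were taken as lists. Of 21 co-repressors and co-activators that RUNX or ETO proteins recruit, all were tested and none passed (edgeR), none had an unadjusted p under 0.05, and DESeq2 and limma-voom called none. Their median log2 fold change was 0.01, with 11 higher, and the libraries overlapped for each. Over all tested genes edgeR called 2.42% higher and 1.32% lower, and 23.5% had groups without overlap. TLE4, a Groucho co-repressor, had the lowest p, with a log2 fold change of -0.26 (edgeR adjusted p = 0.298), and PRMT6, an arginine methyltransferase, was also among the lowest with 0.15 (edgeR adjusted p = 0.501). With the replicate block 6 of the 21 passed, 4 higher and 2 lower, in a fit that called 12.1% of all genes higher and 10.4% lower, among them TLE4 (edgeR adjusted p = 0.00292) and the acetyltransferases EP300 (0.0141) and CREBBP (0.0124).

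Of 19 DNA-binding and adaptor partners, 13 were tested and none passed (edgeR), in a test that called 2.42% of all genes higher and 1.32% lower. TCF4, an E-protein that ETO family members bind, was the only one with an unadjusted p under 0.05, and DESeq2 and limma-voom called none. TCF4 had 113, 128 and 134 CPM in the libraries labelled H295R and 139, 173 and 162 CPM in those labelled H295R-PM-Ptc+. The groups did not overlap, the log2 fold change was 0.34 (edgeR adjusted p = 0.118), and with the replicate block the edgeR adjusted p was 7.98e-05. ZBTB16 had a log2 fold change of -0.52 (edgeR adjusted p = 0.360) and GFI1B 0.83 (0.423). The median of the 13 was 0.03, with 8 higher. The 6 partners that were not tested were LYL1, GATA1 and ERG at 0 counts in all libraries, FLI1 at 1 or less, ETS1 at 3 or less and SPI1 at 5 or less. Other partners known from blood cells, such as TAL1, LMO2 and GATA2, were tested and did not pass.

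Of 27 genes known as RUNX targets in bone, blood or carcinoma cells, 10 were tested, and SPP1 and PRKCQ passed as higher in the H295R-PM-Ptc+-labelled libraries, with 3 targets called by DESeq2 and 2 by limma-voom. Over all 16710 genes edgeR called 2.42% higher, DESeq2 called 911 and limma-voom 608 in either direction, and without H295R replicate 1 edgeR called 4 targets. SPP1, which encodes osteopontin, had 15.7, 19.5 and 17.6 CPM against 43.6, 43.4 and 41.3 CPM, a log2 fold change of 1.28 (SE 0.0931, edgeR adjusted p = 3.93e-04). PRKCQ, which encodes protein kinase C theta, had 5.82, 7.52 and 6.88 CPM against 14.9, 14.6 and 15.6 CPM, a log2 fold change of 1.16 (SE 0.118, edgeR adjusted p = 0.00122). For both, all libraries of the second group lay above all of the first. CDKN1A, the cell cycle inhibitor p21, had a log2 fold change of 0.38 (edgeR adjusted p = 0.0882, or 1.32e-05 with the replicate block). ZEB2 had -0.26 and VEGFA -0.17, both called lower with the block (edgeR adjusted p = 0.00234 and 0.0152), and ZEB1 had -0.09; ZEB1 and ZEB2 were listed because the study names them. The median of the 10 tested genes was 0.13, with 7 higher. The other 17 had at most 9 counts in any library, the blood genes CSF2, IL3 and PF4 being at 0, as was the cartilage gene COL10A1. SPP1 was also the only one of 5 bone markers that was tested, the others having at most 3 counts.

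**Figure D5:**
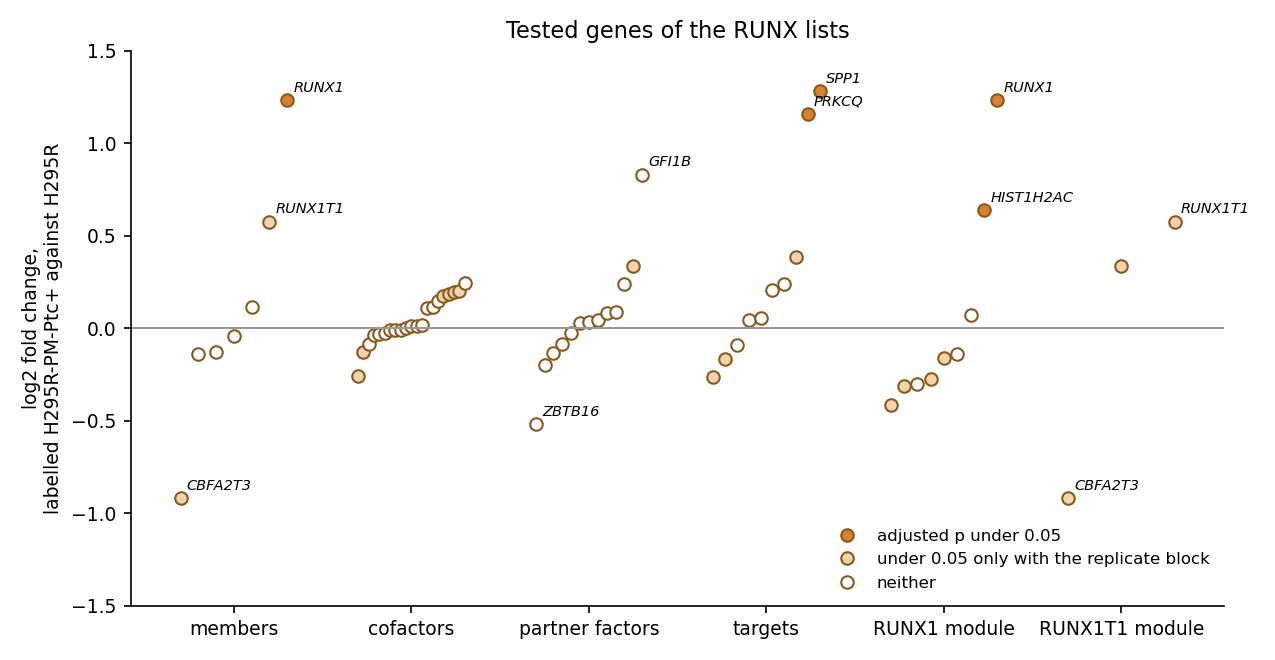
Log2 fold change (vertical axis, as labelled) of each tested gene of the members, the cofactors, the partner factors, the targets and both modules, in rising order within each list; dark points passed the edgeR test, pale points passed with the replicate block alone, and open points passed neither. RUNX1, SPP1 and PRKCQ stand above 1, and the cofactors lie between -0.26 and 0.25.

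The study grouped RUNX1 and CBFB with 7 other genes in a network module, called the RUNX1 module here, and CBFA2T3, RUNX1T1 and TCF4 in another, the RUNX1T1 module. Both modules were chosen by the study on these same libraries, so their counts are no independent evidence. Of the 9 genes of the RUNX1 module, RUNX1 and HIST1H2AC, a histone H2A gene, passed as higher in the H295R-PM-Ptc+-labelled libraries. This direction was called for 2.42% of all tested genes. HIST1H2AC had a log2 fold change of 0.64 (edgeR adjusted p = 0.0371) and no longer passed in 5 of the 6 fits that left out 1 library. With the replicate block DLX6 (-0.42), PHC1 (-0.27), GREB1 (-0.31) and H2AFZ (-0.16) were called lower as well, a direction called for 10.4% of all genes in that fit. Without the block 7 of the 9 had an unadjusted p under 0.05, a count that was not set against all genes. The median of the RUNX1 module was -0.16. None of the 3 genes of the RUNX1T1 module passed (edgeR; all 3 had an unadjusted p under 0.05, and DESeq2 and limma-voom called none), while all 3 passed with the replicate block, a fit that called 12.1% of all genes higher and 10.4% lower.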

How the data were processed

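RNA of 3 replicates each of H295R and H295R-PM-Ptc+ was sequenced in paired reads. The authors mapped the reads to hg38 with STAR 2.4.0a, counted them by gene name with featureCounts (reads of several positions at their primary one), and deposited raw counts without normalization. The submitters' processing notes give Subread 1.5.0-p3. The study's methods give another Subread version and name an mRNA kit where the labels name a total RNA kit. They also give a stranded setting, which was not checked against the reads, while GAPDH was counted at 3362 ± 107 and 3319 ± 77.7 CPM. The deposited counts of the row without a gene name held 0% of all counts, and 0 columns were left unused. Groups and replicate numbers came from the labels.

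The test was the two-sided quasi-likelihood F-test of edgeR 4.0.16 (R 4.3.3) with filterByExpr, TMM factors and the group alone in the model, adjusted by Benjamini-Hochberg over 16710 genes holding 99.9% of the counts. CPM use TMM-scaled library sizes, and FPKM divide them by the deposited gene length. Intervals are 95% intervals of the same fit. Shares and ratios were tested by exact permutation over libraries. The fits were also run on simulated counts that held no replicate effect, and the outcome is not reported here. Alternatives were a replicate block, RLE size factors, DESeq2 1.42.0, limma-voom (limma 3.58.1), no filter, at least 10 counts in every library, each library left out, and, added after seeing the data, replicate 1 of both groups left out and MANE Select lengths.

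Around their group means, log2 CPM values correlated at 0.497, 0.307 and 0.228 for same-numbered libraries and at -0.352 to 0.150 for others, so the replicate numbers pair the samples. The study's methods state no pairing. The main test and the permutation tests left this pairing out. The replicate block, which used it, called RUNX1T1 and CBFA2T3 in addition to RUNX1.

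The members and all lists were chosen with earlier results of these data known. Genes were named as the 7 members, overlapping genes with 10 or more counts, in each list those called or the 3 of lowest p, and the 3 genes most like RUNX1. One cofactor that the rule names is not reported here by name. Genes spanning over 3000000 bases were left out as neighbours. Python 3.11.15 was used with pandas 2.3.3, and matplotlib 3.10.9 for the figures.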

Additional observations from a re-analysis of the deposited data

How the results depend on the processing

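Of the members, RUNX1, RUNX3 and CBFB kept their direction and their side of the threshold in all 14 alternatives each, though RUNX3 came as near to 0 as -0.0016 without H295R replicate 1. RUNX2 changed sign in 4 (-0.05 without H295R replicate 1, -0.14 when H295R-PM-Ptc+ replicate 1 was left out, and -0.29 without replicate 1 of both groups, with and without the block; up to 0.24 with another library left out), and CBFA2T2 in 3 (0.032 when H295R-PM-Ptc+ replicate 1 was left out, and without replicate 1 of both groups 0.038 with the block and 0.038 without it; down to -0.11). RUNX1T1 passed the test with no filter (0.57), with the replicate block (0.58) and without replicate 1 of both groups (0.53, in either fit), and lay between 0.40 and 0.69 with 1 library left out. CBFA2T3 passed with no filter and with at least 10 counts (-0.92 each), with the replicate block (-0.92) and with that block without replicate 1 of both groups (-0.91). The causes were not tested.

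The replicate block raised the members called from 1 to 3, the cofactors from 0 to 6, the partner factors from 0 to 1, the targets from 2 to 5, the RUNX1 module from 2 to 6 and the RUNX1T1 module from 0 to 3, and over all genes from 624 to 3758. It changed no other call of a member. With the block and without replicate 1 of both groups the counts were 3, 7, 1, 6, 6 and 3 in that order, and without replicate 1 of both groups alone 2, 2, 1, 4, 5 and 2. No filter gave 3 members and 2 genes of the RUNX1T1 module, and at least 10 counts in every library gave 2 members and 1 gene of the RUNX1T1 module. Leaving out 1 library gave 0 to 1 cofactors (1 without H295R replicate 1), 2 to 4 targets (4 without H295R replicate 1) and 1 to 2 genes of the RUNX1 module. Over all genes 219 to 810 were called with 1 library left out, 479 of 15493 with at least 10 counts, 1111 of 30966 with no filter, 2013 without replicate 1 of both groups and 4190 with the block as well.

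The RUNX1 share differed by 16.5 percentage points with deposited lengths, 21.8 in CPM without length and 21.4 with MANE Select lengths. The CBFB to RUNX log2 ratio differed by -0.38, -0.71 and -0.62 in that order. RUNX2 and CBFA2T3 had the fewest counts of the members, 15 to 62 per library, and the largest SE of the log2 fold change (0.250 and 0.212). The part of depth in this was not tested.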
